A study of Jaculus jaculus with 29 samples.

Results

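Alkal2, Serpinb2, Has3 and Thbs1 encode proteins that act outside the cell or on its surroundings, and their transcripts were higher in the supraoptic nucleus of water-restricted lesser Egyptian jerboas. The 4 genes were chosen by their rise in Dehydrated against Control in these libraries, and they are called the risers here. They were joined by the receptors Alk and Ltk and the relatives Has2 and Thbs2, which were picked for kinship. The list was drawn up with earlier results of these data known. The 8 members were found by symbol among 29170 genes of the count table, 7 of them in the authors' deposited table for dehydration and Has2 by its overlap with a RefSeq gene of the same assembly. A filter on low counts left 17558 genes for testing, with 7 of the 8 members among them and Has2 below it.

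RNA-seq counts came from punches of the supraoptic nucleus, the hypothalamic nucleus whose magnocellular neurons make vasopressin and oxytocin. The Dehydrated group (10 libraries, 6 females and 4 males) had 11 days of water restriction. The Rehydrated group (9 libraries, 4 females and 5 males) had 7 days of restriction and then 3 days with water, and the Control group (10 libraries, 5 females and 5 males) drank freely. All were jerboas housed singly with dry food at hand, and the labels name no genetic change, strain or age. Rehydrated animals had thus been restricted for fewer days than Dehydrated animals, and no group shows the nucleus after 7 days of restriction alone.

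Totals per library lay between 10797577 and 18856620 counts. Control M01 had the lowest total and lay at 147.6 on the first principal component, where the other libraries lay between -14.4 and 7.41. Summed CPM (counts scaled to TMM-adjusted library totals and given per 1000000) of 7 magnocellular markers ran from 2215 to 6911 in Dehydrated, from 502 to 5288 in Rehydrated and from 763 to 3681 in Control libraries. Magnocellular marker transcripts were thus present in every library, at uneven levels. Whether the punches held equal parts of the nucleus was not tested. No marker of the 13 cell type lists was at 0 in all libraries, and transcripts of glia, vessels and blood were present beside those of neurons. In bulk tissue, more cells of a type and more RNA per cell cannot be told apart.

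By way of background, ALKAL2 is a secreted ligand that activates the receptor tyrosine kinases ALK and LTK, which signal through adaptor proteins to the ERK pathway. SERPINB2, also called plasminogen activator inhibitor type 2, is a serpin that blocks urokinase and tissue plasminogen activator and is made both as an intracellular and as a secreted protein. HAS3 is not itself secreted: it is a plasma membrane enzyme that spins hyaluronan, a long sugar polymer of the extracellular matrix, out of the cell, and HAS2 makes the same polymer. THBS1 and THBS2 are trimeric matrix glycoproteins that bind CD47, CD36 and integrins, THBS1 can activate latent TGF-beta, and both are known as astrocyte products that promote synapse formation in rodents. These roles are known from human, mouse and rat.

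Positions refer to mJacJac1, and no other counted gene overlapped any of the 8 members. Alkal2 (ENSJJAG00000015616, chromosome 2, 55945599 to 55950930, minus strand) was counted over 4 exons with a total length of only 463 bp. The RefSeq gene of that name runs 3517 bases further at its 3′ end, which the counted model leaves out. Serpinb2 (ENSJJAG00000008877, chromosome 15, 8657389 to 8666371, plus strand) has 7 exons, and Has3 (ENSJJAG00000020472, chromosome 1, 245761516 to 245769263, minus strand) has 3. Thbs1 (ENSJJAG00000012210, chromosome 8, 40317663 to 40333916, plus strand) has 22 exons and 4733 bp of exon.

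The receptor and relative genes lie on other chromosomes or far from the risers. Alk (ENSJJAG00000015463) spans 172533103 to 173057485 on the plus strand of chromosome 5, and its RefSeq gene starts 223367 bases further 5′. Ltk (ENSJJAG00000022989) lies on chromosome 8, 58241873 to 58252481, plus strand. Has2 (ENSJJAG00000000159) lies on chromosome 2, 191995078 to 192013702, minus strand, and Thbs2 (ENSJJAG00000005730) on chromosome 9, 1179412 to 1213542, plus strand.

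Alkal2, the ligand, was scarce with free water and higher in most dehydrated animals. Its level ran from 0.272 over a median of 2.86 to 6.28 CPM in Dehydrated libraries, from 0.0592 over 0.344 to 1.05 CPM in Rehydrated libraries, and from 0 over 0.406 to 1.38 CPM in Control libraries. Of the Dehydrated libraries 8 of 10 lay above the highest Control library, and the other two, F07 at 0.272 CPM and M02 at 0.487 CPM, lay inside the Control range, so the groups overlapped. The 3 groups held 456, 61 and 65 Alkal2 counts in Dehydrated, Rehydrated and Control, with a median of 52.5, 6 and 6 counts per library.

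Single Alkal2 values are imprecise at such counts. The 4 counts in Dehydrated F07 give a 95% exact binomial interval of 0.0741 to 0.696 CPM, and the 96 counts in Dehydrated M06 one of 5.09 to 7.67 CPM. Control F05 and Control M04 had no Alkal2 count, and their intervals run up to 0.272 and 0.212 CPM (3 counts would be 0.221 and 0.172 CPM). Control F02, the highest of its group with 21 counts, has an interval of 0.852 to 2.10 CPM. Such intervals cover counting error only, since reads without molecular identifiers are not independent molecules.

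Serpinb2 ran from 0.548 over a median of 1.85 to 6.87 CPM in Dehydrated libraries, from 0.112 over 0.825 to 1.83 CPM in Rehydrated libraries, and from 0.0736 over 0.579 to 0.952 CPM in Control libraries. The same 8 of 10 Dehydrated libraries as for Alkal2 exceeded every Control library. M06 and F05, at 6.87 and 5.46 CPM, stood above the rest of the Dehydrated group, whose next library, M09, was at 3.13 CPM. Among Rehydrated libraries 3 of 9 also lay above the Control maximum, at 1.09 to 1.83 CPM.

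Has3 ran from 1.02 over a median of 3.24 to 9.51 CPM in Dehydrated libraries, from 0.840 over 1.24 to 2.24 CPM in Rehydrated libraries, and from 0.286 over 1.57 to 2.38 CPM in Control libraries. Of the Dehydrated libraries 7 of 10 lay above the Control maximum, F05 and F04 highest at 9.51 and 8.25 CPM, while M02 at 2.38 CPM, M09 at 2.07 CPM and F07 at 1.02 CPM did not. All Rehydrated libraries lay inside the Control range.

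Thbs1 had the most counts of the risers, 3764 in Dehydrated, 1937 in Rehydrated and 1690 in Control, and the least spread within groups. It ran from 14.2 over a median of 21.4 to 39.6 CPM in Dehydrated libraries, from 9.63 over 12.8 to 18.3 CPM in Rehydrated libraries, and from 5.33 over 12.5 to 18.4 CPM in Control libraries. All 10 Dehydrated libraries lay above the Control median and 7 above the Control maximum. The 4 Dehydrated males kept within 20.3 to 23.4 CPM, whereas the 6 Dehydrated females reached from 14.2 to 39.6 CPM.

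**Figure D1:**
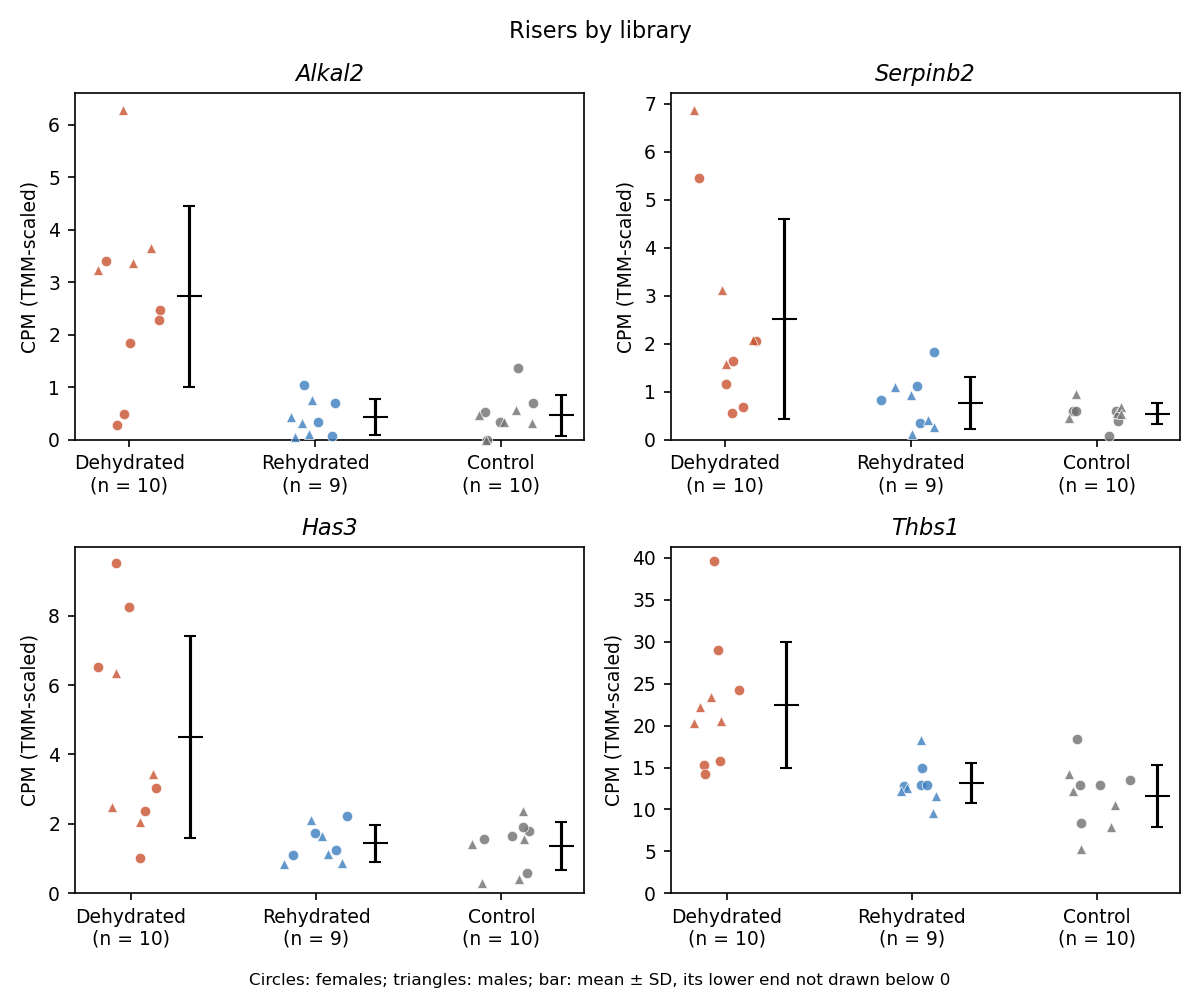
Levels of the 4 risers in each library (CPM from TMM-scaled totals, linear axis from 0), with Dehydrated left, Rehydrated in the middle and Control right. Circles are females and triangles males by label, and the bar is the mean ± SD. For Alkal2 and Serpinb2, 8 of 10 Dehydrated points lie above every Control point, and for Has3 and Thbs1 7 of 10 do.

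Differences between groups were estimated with edgeR's quasi-likelihood test over all 29 libraries with sex as covariate. Dehydrated against Control, which chose the risers, gave log2 fold changes of 2.54 (SE 0.53) for Alkal2, 2.21 (SE 0.45) for Serpinb2, 1.65 (SE 0.35) for Has3 and 0.94 (SE 0.18) for Thbs1. These correspond to 5.80-fold, 4.63-fold, 3.15-fold and 1.92-fold higher fitted levels. Of all tested genes 0.114% passed an adjusted p of 0.05 in the upward direction in that comparison, all 4 risers among them by choice, so that count says nothing further about them (0.0114% passed in the downward direction). The last gene inside that threshold was Kl, with a log2 fold change of 1.74 and an adjusted p of 0.0476, and the first outside was Vip, with 2.56 and 0.0509. The call behind that choice depended on single libraries: leaving out each of the 29 in turn, the adjusted p was no longer under 0.05 without 19 of them for Alkal2, 12 for Serpinb2, 20 for Has3 and 0 for Thbs1, and it reached 0.106, 0.106, 0.146 and 0.0460. The authors' deposited table gave log2 fold changes of 2.61, 2.33, 1.57 and 0.87 for Alkal2, Serpinb2, Has3 and Thbs1, the same values that DESeq2 gave here on 28 libraries with Control M01 left out.

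Marker levels of some of the listed cell types were set beside these values. Summed CPM of 3 red blood cell markers was 31.8 to 188 in Dehydrated and 114 to 807 in Control libraries, and that of 5 oligodendrocyte markers was 2289 to 6160 in Dehydrated and 2487 to 6409 in Control libraries, with 0 of 3 and 0 of 5 log2 fold changes positive and none past the test. Platelets are a rich source of THBS1 in blood. Their 4 markers, 3 of them tested, summed to 10.2 to 14.5 CPM in Dehydrated and 9.65 to 16.5 CPM in Control libraries. Log2 fold changes were positive for 2 of the 3 tested, and 0 passed. The 8 astrocyte markers summed to 2506 to 3541 CPM in Dehydrated and 2225 to 4389 CPM in Control libraries. Of these 8, 5 had a positive log2 fold change and 0 passed. Of 10 tested microglia and macrophage markers 4 had a positive log2 fold change. The sum of all 11 found was 130 to 202 CPM in Dehydrated and 114 to 518 CPM in Control libraries. Monocyte and neutrophil markers summed to 11.3 to 19.04 CPM in Dehydrated and 8.10 to 32.8 CPM in Control libraries. Of the 7 magnocellular markers 4 had a positive log2 fold change, and 2 passed an edgeR adjusted p of 0.05, where 0.125% of all tested genes passed. Mean Avp was 3293 CPM in Dehydrated and 934 CPM in Control libraries, while mean Oxt was 841 and 876 CPM. The part of these cell types, or of the higher magnocellular sum, in the levels of the risers was not tested.

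After water was regained, none of the 4 risers differed from Control past the test. The log2 fold changes of Rehydrated against Control, which uses the same Control libraries as the comparison that chose the risers, were -0.13 for Alkal2 (95% interval -1.34 to 1.08), 0.52 for Serpinb2 (-0.45 to 1.49), 0.08 for Has3 (-0.67 to 0.83) and 0.19 for Thbs1 (-0.18 to 0.56). Adjusted p-values from edgeR were 0.968, 0.805, 0.969 and 0.813 in that order, and 0 of the 7 tested members passed, as did 0% of all tested genes. None of the 7 had an unadjusted p under 0.05 either, against 7.48% of all tested genes, and none passed in DESeq2. Group ranges overlapped for all 8 members in every comparison, as they did for all tested genes except 0.0057% in Rehydrated against Dehydrated, which were higher in Rehydrated. The intervals still allow Serpinb2 and Alkal2 to differ from Control by more than a doubling in Rehydrated animals, while for Thbs1 they do not. The parts of low counts and of spread between animals in these widths were not tested. Serpinb2 had the largest positive estimate of the 4, with 5 of 9 Rehydrated libraries above the Control median.

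Set against Dehydrated animals, all 4 risers had lower estimates in Rehydrated animals, with log2 fold changes of -2.67 (SE 0.55) for Alkal2, -1.69 (SE 0.44) for Serpinb2, -1.58 (SE 0.36) for Has3 and -0.75 (SE 0.18) for Thbs1. No Rehydrated library reached the Dehydrated median for any of the 4. This comparison uses the Dehydrated libraries in which the risers had been chosen for being high, and it is not independent of that choice. None of the 4 passed in edgeR, with adjusted p-values of 0.103, 0.552, 0.214 and 0.344 for Alkal2, Serpinb2, Has3 and Thbs1, where 0.0228% of all tested genes passed. All 4 had an unadjusted p under 0.05, as did 3.88% of all tested genes, and they ranked 6, 19, 11 and 14 by p among 17558 genes. In DESeq2 Alkal2 and Has3 passed, with adjusted p-values of 0.00289 and 0.0192. Without Dehydrated F07 the edgeR adjusted p was 0.0204 for Alkal2 and 0.0440 for Has3, and without Dehydrated M02 it was 0.0329 for Alkal2. F07 and M02 had the lowest Alkal2 levels of the Dehydrated group, so leaving out either one widens the difference. Over all alternative runs the edgeR adjusted p reached 0.316 for Alkal2 and 0.730 for Has3.

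**Figure D2:**
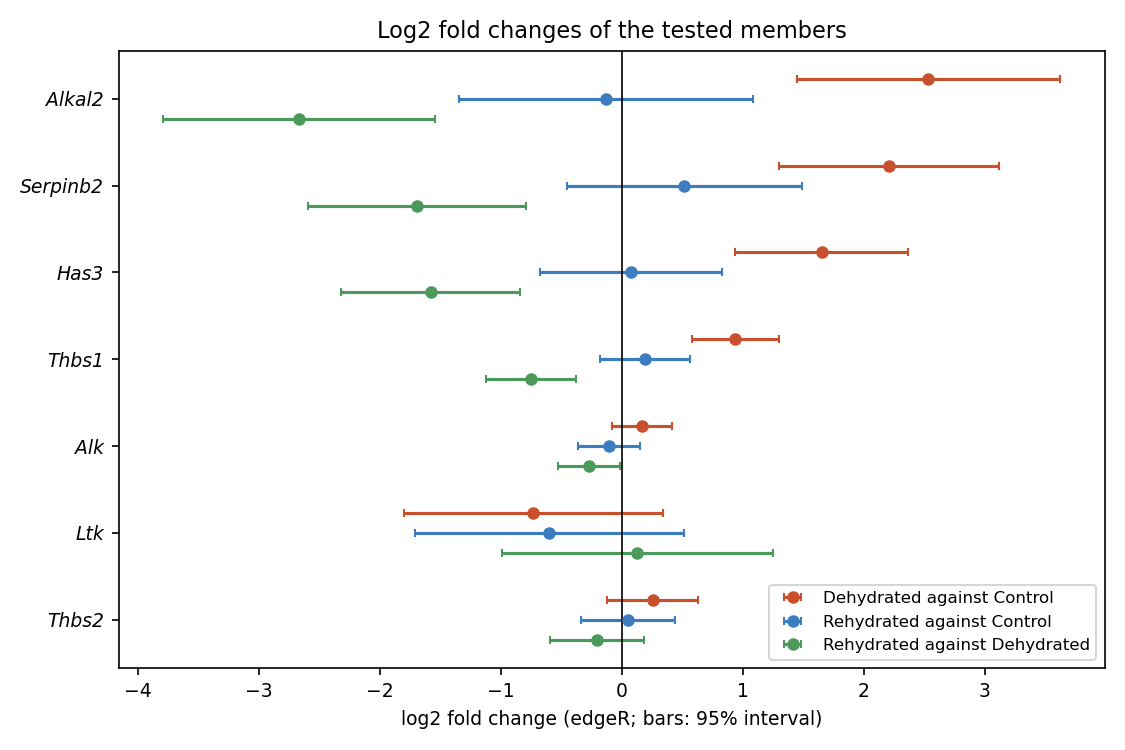
Log2 fold changes of the 7 tested members from edgeR with 95% intervals, Dehydrated against Control, Rehydrated against Control and Rehydrated against Dehydrated from top to bottom within each gene. The risers lie right of 0 in the first comparison, which chose them, span 0 in the second and lie left of 0 in the third. Ltk has wide intervals, from -1.801 to 0.34 in Dehydrated against Control, and those of Alk are narrow, from -0.08 to 0.42.

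The receptors of ALKAL2 did not move with their ligand past the test. Alk was detected in every library, at 27.6, 35.3 and 45.1 CPM (lowest, median and highest) in Dehydrated libraries, 23.4, 28.7 and 34.3 CPM in Rehydrated libraries, and 16.5, 29.5 and 47.0 CPM in Control libraries. The ranges overlapped, with Control both lowest, in M01, and highest, in M06. Of the Dehydrated libraries 9 of 10 lay above the Control median. Dehydrated against Control gave a log2 fold change of 0.17 (SE 0.12, edgeR adjusted p = 0.807), and Rehydrated against Dehydrated gave -0.27 (SE 0.13, edgeR adjusted p = 1.00), where 0 of 9 Rehydrated libraries lay above the Dehydrated median.

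Ltk was scarce, at 0, 0.898 and 3.14 CPM in Dehydrated libraries, 0.0700, 0.803 and 3.29 CPM in Rehydrated libraries, and 0.223, 1.29 and 4.25 CPM in Control libraries. Its coefficient of variation was 83.7%, 85.5% and 74.98% in Dehydrated, Rehydrated and Control, so animals of one group differed by as much as the groups. The log2 fold change of -0.73 in Dehydrated against Control has an interval of -1.801 to 0.34 and an edgeR adjusted p of 0.804. Alkal1, the other ALK ligand of this family, was among the genes looked for and was not found among the tested genes.

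Has2, the second hyaluronan synthase, had only 45, 76 and 87 counts over all libraries of Dehydrated, Rehydrated and Control. Levels ran from 0.0559 over a median of 0.253 to 0.612 CPM in Dehydrated libraries, from 0.112 over 0.560 to 0.987 CPM in Rehydrated libraries, and from 0 over 0.556 to 1.55 CPM in Control libraries. Only 1 of 10 Dehydrated libraries lay above the Control median, the opposite side from Has3. In a fit without the filter on low counts, Dehydrated against Control gave a log2 fold change of -1.07 (SE 0.54, edgeR adjusted p = 0.718 over 25653 genes), which does not pass.

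Thbs2, the closest relative of Thbs1, ran from 13.7 over 19.3 to 31.9 CPM in Dehydrated libraries, from 8.60 over 17.1 to 22.8 CPM in Rehydrated libraries, and from 8.19 over 16.5 to 22.2 CPM in Control libraries. Dehydrated against Control gave 0.26 on the log2 scale (95% interval -0.12 to 0.63, edgeR adjusted p = 0.804), and 7 of 10 Dehydrated libraries lay above the Control median. Of the 3 relatives and receptors with a test, none passed in any of the 3 treatment comparisons in edgeR, and Alk in Rehydrated against Dehydrated was the only one with an unadjusted p under 0.05, at 0.0403.

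**Figure D3:**
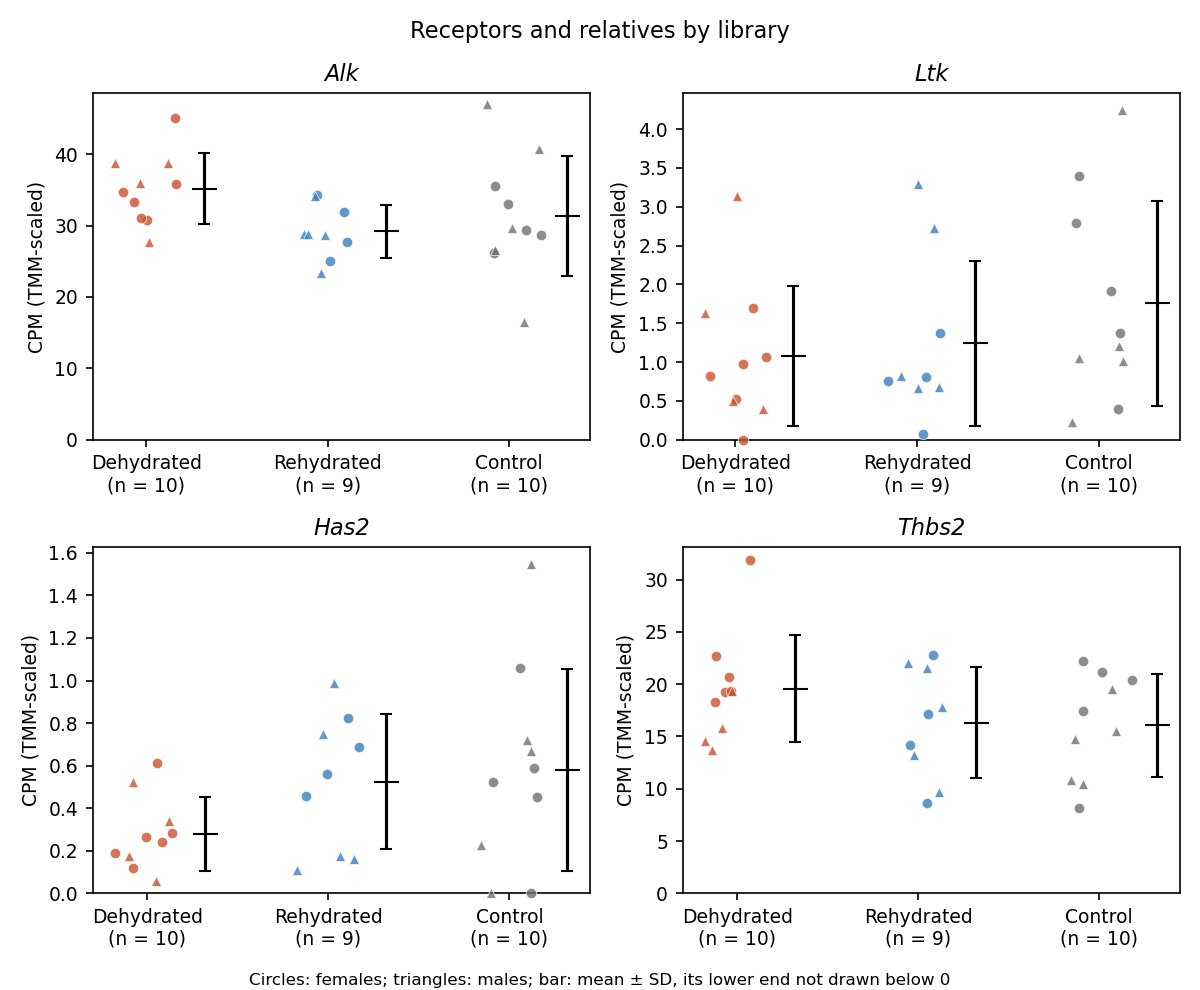
Levels of Alk, Ltk, Has2 and Thbs2 in each library (CPM from TMM-scaled totals, linear axis from 0), Dehydrated left, Rehydrated in the middle and Control right, circles for females, triangles for males, and a bar for the mean ± SD. The groups overlap in all 4 panels, and no Has2 point lies above 1.55 CPM.

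Levels were compared between genes per kilobase of exon. In Dehydrated libraries the order of mean levels was Alk at 7.88 ± 1.12, Alkal2 at 5.90 ± 3.72, Thbs1 at 4.75 ± 1.59, Thbs2 at 3.77 ± 0.991, Has3 at 2.64 ± 1.71, Serpinb2 at 2.02 ± 1.67, Ltk at 0.346 ± 0.290 and Has2 at 0.105 ± 0.0652 CPM per kb (SD, n = 10). Each pair of neighbours in that order differed by less than the sum of their SDs. In Control libraries Alk led at 7.02 ± 1.89 CPM per kb and Thbs2 followed at 3.09 ± 0.9496 CPM per kb, above Thbs1 at 2.46 ± 0.789 CPM per kb. Alkal2 stood there at 1.00 ± 0.848 CPM per kb, above 8.16% of the tested genes, against 35.4% in Dehydrated libraries. The level of Alkal2 per length rests on its short counted model. Even when raised, Alkal2, Serpinb2, Has3 and Thbs1 lay below the median of tested genes, with Thbs1 above 30.5% of them in Dehydrated libraries.

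Whether the dehydration response differed between the sexes was not part of how the members were chosen. Alkal2 averaged 1.79 ± 1.21 CPM in Dehydrated females (SD, n = 6) and 0.586 ± 0.512 CPM in Control females (SD, n = 5). In males it averaged 4.14 ± 1.44 CPM in Dehydrated (SD, n = 4) and 0.341 ± 0.217 CPM in Control (SD, n = 5). The log2 response was 1.597 in females and 3.62 in males, and the female minus male difference of -2.02 (95% interval -4.08 to 0.03) did not pass, with an edgeR adjusted p of 0.817 and an unadjusted p of 0.0537.

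Female minus male differences in response of the other risers were -0.36 for Serpinb2, 0.26 for Has3 and -0.30 for Thbs1, with edgeR adjusted p-values of 0.9499, 0.954 and 0.906. Of the 7 tested members 0 passed this test and 0 had an unadjusted p under 0.05, against 0% and 6.05% of all tested genes. Level as such did not differ between the sexes past the test for any of the 7, where 0.0342% of tested genes passed, and none of the 7 had an unadjusted p under 0.05, against 3.99% of tested genes. For 3 of the 29 libraries, Dehydrated M02, Control F03 and Control M05, the labelled sex and the letter of the name disagree, and the labelled sex was used.

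Animals within a group differed widely, and 2 of the 6 pairs of risers varied together from animal to animal by Pearson's r, although none of the 6 passed by Spearman's rho after adjustment. Coefficients of variation in the Dehydrated group were 63.1% for Alkal2, 82.8% for Serpinb2, 64.7% for Has3 and 33.5% for Thbs1. Dehydrated F07 had the lowest level of Alkal2, Has3 and Thbs1 and the second lowest of Serpinb2 in its group, at 0.272, 1.02, 14.2 and 0.680 CPM. Dehydrated M06 had the highest Alkal2 and Serpinb2, at 6.28 and 6.87 CPM, and Dehydrated F05 the highest Has3 and Thbs1, at 9.51 and 39.6 CPM.

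To set aside the differences between groups that chose the risers, each group's mean log2 CPM was subtracted before the 6 pairs of risers were correlated over 29 libraries. Alkal2 and Serpinb2 had Pearson's r = 0.56 and Spearman's rho = 0.47, with permutation p = 0.0016 and 0.0123, adjusted over the 6 pairs to 0.0096 and 0.0549. Without the 2 libraries farthest from the Alkal2 median, Control M04 and Control F05, r was 0.59. Within groups r was 0.83 in Dehydrated, 0.44 in Rehydrated and 0.46 in Control libraries.

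Has3 and Thbs1 had r = 0.57 and rho = 0.47, with permutation p = 0.0041 and 0.0183, adjusted to 0.0122 and 0.0549. Without the 2 libraries farthest from the Has3 median, Control M01 and Dehydrated F07, r was 0.37 with permutation p = 0.0850, so this relation rests in part on those 2 libraries. Without Control M01 alone r was 0.45 with an adjusted permutation p of 0.0504. Within groups r was 0.84 in Dehydrated, 0.43 in Rehydrated and 0.37 in Control libraries.

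The other 4 pairs did not pass by permutation. Alkal2 had r = 0.39 with Has3 (rho 0.39, adjusted permutation p = 0.0984 and 0.0773) and r = 0.34 with Thbs1 (rho 0.29, adjusted permutation p = 0.153 and 0.209). Serpinb2 had r = 0.25 with Has3 (rho 0.09, adjusted permutation p = 0.231 and 0.624) and r = 0.21 with Thbs1 (rho 0.20, adjusted permutation p = 0.270 and 0.363). Without their 2 farthest libraries r was 0.44, 0.38, 0.12 and 0.23 for these pairs in that order. Within Dehydrated libraries r was 0.65, 0.64, 0.55 and 0.61, given as a description, and for Serpinb2 with Thbs1 it was 0.67 in Rehydrated and -0.50 in Control libraries. Without Control M01 Alkal2 correlated with Has3 at r = 0.50 (adjusted permutation p = 0.0284) and with Thbs1 at r = 0.48 (adjusted permutation p = 0.0301), and without Control M04 Alkal2 correlated with Has3 at r = 0.48 (adjusted permutation p = 0.0259). Genes counted in the same library share its depth and tissue makeup, whose part in these correlations was not tested.

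**Figure D4:**
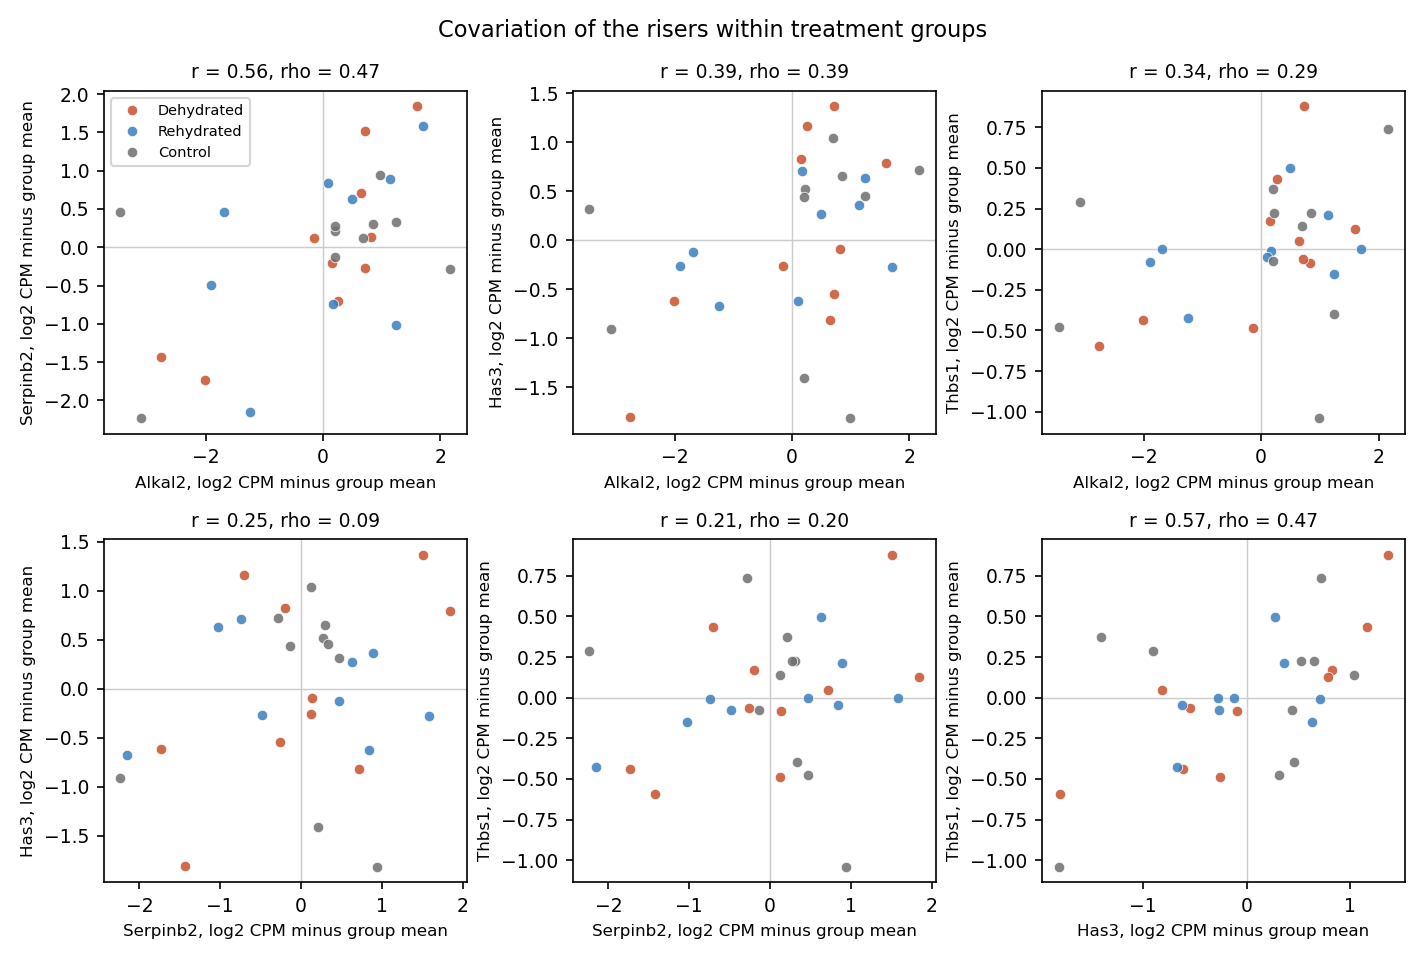
Log2 CPM of each pair of risers after the group mean was subtracted, 1 point per library, Dehydrated, Rehydrated and Control by colour, with Pearson's r and Spearman's rho above each panel. The pairs Alkal2 with Serpinb2 (r = 0.56) and Has3 with Thbs1 (r = 0.57) lie closest to a line.

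Among named genes with a mean of at least 1 CPM, the genes whose level ran most alike were sought by Spearman's rho over the 29 libraries, as a description with no test and with the 8 members left out of the ranking. Among the risers themselves Alkal2 and Has3 had a rho of 0.76, which would place Alkal2 above Elapor1 for Has3 and Has3 above Tmod1 for Alkal2. Has3 ran most alike with Pcsk1, a prohormone convertase of neuroendocrine cells, at rho = 0.90, followed by MEST at 0.81, Ell2, an RNA polymerase II elongation factor, at 0.78, Elapor1 at 0.75 and Elk3 at 0.73. Alkal2 ran most alike with Pcolce2, a procollagen processing enhancer, at 0.80, Elapor1 at 0.79, Chgb, a granin of secretory vesicles, at 0.79, Pcsk1 at 0.76 and Tmod1 at 0.74. Serpinb2 ran most alike with SPP1, which encodes osteopontin, at 0.77, Chst8 at 0.74, PDYN, the prodynorphin precursor, at 0.73, Tmod1 at 0.72 and Caprin2 at 0.70. For Thbs1 the closest were Sowahc at 0.72, Edem1, which takes part in the disposal of misfolded proteins, Tm9sf1 and Akap1 at 0.70 each, and Dhx32 at 0.69. The other pairs of risers ran from 0.45 to 0.68. These values hold the differences between groups.

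With group means subtracted, Has3 kept Pcsk1 (rho 0.80) and Ell2 (0.79) as its closest genes, next to 1810013L24Rik (0.78), Fosl2 (0.68) and Lig4 (0.68). The nearest genes of the other 3 risers were no longer those above. Alkal2 was closest to Fosl1 and Ppib at 0.70 each, then Ufsp2, Nfatc1 and Yes1 at 0.63, 0.62 and 0.62. Serpinb2 was closest to Cmtm8 at 0.70, Zfand6 and Bst2 at 0.64 each, Btg1 at 0.63 and Dcaf13 at 0.62. Thbs1 was closest to Kif16b, Msn and Tns1 at 0.74 each, Wwtr1, the coactivator TAZ of the YAP pathway, at 0.73 and Fat4 at 0.72.

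The genes around the risers were described in 8 lists with 108 distinct tested genes, covering ALK signalling, ERK output, the plasminogen system, clade B serpins, hyaluronan synthesis and breakdown, hyaluronan-binding matrix, thrombospondins with their receptors, and targets of TGF-beta and YAP. In edgeR 0 of 108 passed in each of the 3 treatment comparisons, where 0.125%, 0% and 0.0228% of all tested genes passed in Dehydrated against Control, Rehydrated against Control and Rehydrated against Dehydrated. With an unadjusted p under 0.05 there were 17, 9 and 5 of 108, or 15.7%, 8.33% and 4.63%, against 6.37%, 7.48% and 3.88% of all tested genes. The 17 in Dehydrated against Control were 7 higher and 10 lower. The lists were chosen with earlier results of these data known, so these shares are only a description. DESeq2 passed 2, 1 and 0 of the 108 genes, Tnfaip6 and Bcan in Dehydrated against Control and Tnfaip6 in Rehydrated against Control. Over the 108 genes 46.3% had a positive log2 fold change in Dehydrated against Control, against 49.2% of all tested genes, with a median of -0.02 against 0.00. The share was 47.2% against 50.8% in Rehydrated against Control and 52.8% against 51.4% in Rehydrated against Dehydrated.

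Neither ALK signalling genes nor ERK output genes passed the test. Of 13 tested genes of ALK and LTK signalling 4 had a positive log2 fold change in Dehydrated against Control, with a median of -0.03, and of 18 ERK feedback and output genes 11 did, with a median of 0.06. Ptn, a heparin-binding growth factor, was at 196 ± 24.1 CPM in Dehydrated and 231 ± 42.3 CPM in Control libraries (SD, n = 10 each; edgeR adjusted p = 0.720), and its relative Mdk was at 11.4 and 13.99 CPM (edgeR adjusted p = 0.787). Etv5, a transcription factor induced by ERK signalling, was at 39.9 ± 4.30 CPM in Dehydrated and 32.2 ± 6.67 CPM in Control libraries (SD, n = 10 each; log2 fold change 0.32, edgeR adjusted p = 0.545), and 10 of 10 Dehydrated libraries lay above the Control median. Mcl1, a survival factor, was at 48.7 CPM in Dehydrated and 60.0 CPM in Control libraries (edgeR adjusted p = 0.566), and 0 of 10 Dehydrated libraries lay above the Control median. Of the 18 ERK genes, 2 were higher and 3 lower with an unadjusted edgeR p under 0.05. Such a p, in either direction, was found for 6.37% of all tested genes.

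In the plasminogen system 6 of 15 tested genes had a positive log2 fold change in Dehydrated against Control, with a median of -0.17. Serpinf2, which encodes the plasmin inhibitor alpha-2-antiplasmin, was at 1.09 CPM in Dehydrated and 2.07 CPM in Control libraries (edgeR adjusted p = 0.660). Of the 7 tested relatives of Serpinb2 in clade B, 2 had a positive log2 fold change and the median was -0.03, and the pair with the smallest p lay on opposite sides of 0, Serpinb5 at 2.15 CPM in Dehydrated and 3.75 CPM in Control (edgeR adjusted p = 0.720) and Serpinb11 at 2.41 CPM in Dehydrated and 0.942 CPM in Control (edgeR adjusted p = 0.774).

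Of 16 tested genes of hyaluronan turnover 8 had a positive log2 fold change in Dehydrated against Control, with a median of -0.01. Has1, the third synthase, was at 2.98 ± 0.990 CPM in Dehydrated and 2.90 ± 1.20 CPM in Control libraries (SD, n = 10 each), and Cd44, a hyaluronan receptor, at 13.5 ± 3.77 and 13.4 ± 4.17 CPM (both named after their values were seen). Cemip, which degrades hyaluronan, was at 16.1 CPM in Dehydrated and 10.9 CPM in Control libraries (log2 fold change 0.57, edgeR adjusted p = 0.762), and Hexa, a lysosomal hexosaminidase, at 48.7 and 59.1 CPM (edgeR adjusted p = 0.646).

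The hyaluronan-binding matrix held the 2 list members nearest to the threshold, both with a negative log2 fold change in Dehydrated against Control. Bcan, the brain proteoglycan brevican, was at 234 ± 23.6 CPM in Dehydrated and 306 ± 46.8 CPM in Control libraries (SD, n = 10 each; log2 fold change -0.38, SE 0.08, edgeR adjusted p = 0.0656). Tnfaip6, a secreted hyaluronan-binding protein, was at 1.18 ± 0.557 CPM in Dehydrated and 3.35 ± 2.20 CPM in Control libraries (SD, n = 10 each; log2 fold change -1.43, SE 0.32, edgeR adjusted p = 0.0749). For both, 0 of 10 Dehydrated libraries lay above the Control median. In Rehydrated libraries Bcan was at 255 ± 34.8 CPM and Tnfaip6 at 1.34 ± 0.720 CPM (SD, n = 9), with edgeR adjusted p-values of 0.553 and 0.370 against Control. Of the 11 tested members of this list 3 had a positive log2 fold change in Dehydrated against Control, with a median of -0.04.

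Thrombospondins and their receptors had 10 of 14 positive log2 fold changes in Dehydrated against Control and a median of 0.18, the highest of the 8 lists. Cd47, a receptor of THBS1, was at 167 ± 13.8 CPM in Dehydrated and 147 ± 28.3 CPM in Control libraries (SD, n = 10 each; edgeR adjusted p = 0.774), and the integrin subunit Itga3 was at 50.5 and 45.9 CPM (edgeR adjusted p = 0.747). Of 15 targets of TGF-beta and YAP 7 had a positive log2 fold change and the median was -0.06, with Adamts1, a matrix protease, at 11.3 CPM in Dehydrated and 13.1 CPM in Control libraries (edgeR adjusted p = 0.792) and Tgfb1 at 3.41 and 4.13 CPM (edgeR adjusted p = 0.807).

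**Figure D5:**
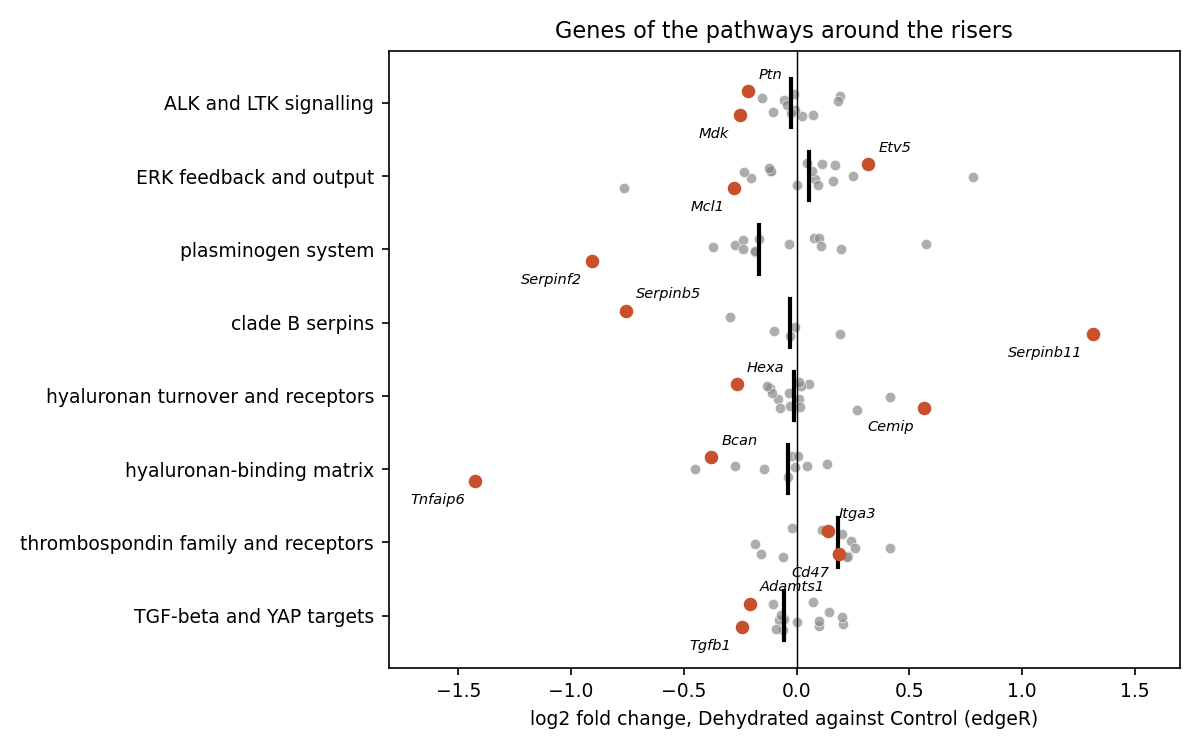
Log2 fold changes of Dehydrated against Control from edgeR for tested genes of the 8 lists, 1 point per gene, with the list median as a vertical bar and genes of smallest p in each list in colour and named. Tnfaip6 lies farthest left at -1.43 and Serpinb11 farthest right at 1.32, and none of the points passed an adjusted p of 0.05.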

How the data were processed

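Polyadenylated RNA of 29 libraries was analysed, each treated as 1 animal, since the labels number the samples and describe single housing. Nothing else says that libraries are separate animals. The p-values of group differences set each difference against the spread between libraries. The deposited table holds whole counts of fragments for each gene. Per the file headers, the authors ran featureCounts 1.6.2 on read pairs with Ensembl gene models of mJacJac1 and set no strand option, so antisense reads cannot be told apart. The submitters' processing notes also name FastQC and DESeq2, and the names of the alignment files in the header carry the word Rsubread, the R package that includes the Subread aligner; no aligner settings are named in the sources used here. Comparison tables that the authors deposited give log2 fold changes, standard errors and p-values from DESeq2, per the submitters' processing notes; their 56 columns of values per library were not used. Genes took names from those tables (9699) or from a RefSeq gene of that assembly sharing 0.5 or more of both spans (5594, Has2 among them). Where both named a gene, 96.6% of names were the same.

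Counts were tested in edgeR 4.0.16 (R 4.3.3): filterByExpr on group, TMM scaling, and a robust quasi-likelihood fit on group plus sex in the 29 libraries (25 residual degrees of freedom), with Benjamini-Hochberg adjustment over 17558 genes and a threshold of 0.05. The filter removed 11612 genes holding 0.126% of counts. Sex differences came from a model of group by sex. Correlations used log2 CPM with a prior count of 0.5 and 100000 two-sided permutations within groups (Python 3.11.15, numpy 2.4.6, pandas 2.3.3). Intervals of single values are exact binomial (scipy 1.17.1). Figures used matplotlib 3.10.9. The pipeline was tested on simulated data. Sampling noise was exceeded in all 126 replicate pairs (chi-square per degree of freedom 8.90 to 162). DESeq2 1.42.0, changed size factors, filters or covariates, and leaving out each library served as alternatives. Named are the 8 members, in each list genes that passed and the 2 with the smallest p in Dehydrated against Control, and the 5 genes most alike to each riser, members left out; 1 gene that this rule names is not reported here. Members and lists were chosen with earlier results of these data known.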

Additional observations from a re-analysis of the deposited data

Results flagged for a closer look

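Alkal2 in Control F02, at 1.376 CPM, stood apart as the highest Control library, with the next at 0.6964 CPM. Thbs2 in Dehydrated F06, at 31.91 CPM, stood apart as the highest Dehydrated library, with the next at 22.71 CPM. These are 2 of 24 gene and group combinations looked at, and chance alone flags about 1 in 20. Without Control F02 the log2 fold change of Alkal2 was 2.93 in Dehydrated against Control and 0.27 in Rehydrated against Control.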

How the results depend on the processing

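Alternatives changed calls more than directions. Genes past the threshold numbered 22 in Dehydrated against Control, 44 in DESeq2, 11 with only the compared groups fitted and 47 in DESeq2 without Control M01, and 10 to 27 with each library left out. In Rehydrated against Control the 0 genes became 16 in DESeq2 and 4 in DESeq2 without Control M01, and 0 to 2 with each library left out. In Rehydrated against Dehydrated the 4 genes became 16 in DESeq2, 1 with only the compared groups, 19 in DESeq2 without Control M01 and 2 to 9 with each library left out, most without Dehydrated F07.

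Log2 fold changes of the risers in Dehydrated against Control stayed positive in every alternative run, from 2.34 to 3.48 for Alkal2, 1.89 to 2.51 for Serpinb2, 1.502 to 2.24 for Has3 and 0.83 to 1.12 for Thbs1. Their adjusted p did not stay under 0.05: with only the compared groups fitted it was 0.0898 for Alkal2, 0.195 for Has3 and 0.0879 for Thbs1, and without the filter on low counts 0.0522 for Alkal2. It also exceeded 0.05 for Alkal2 without any 1 Dehydrated library except F07 and M02, any 1 Control library except F02, or Rehydrated F04 or F06. For Has3 this held without Dehydrated F04, F05, F06, M05, M06 or M08, Rehydrated F03, F04, F06, M06 or M08, or any 1 Control library except M06, and for Serpinb2 without Dehydrated F05, M06 or M09 or any 1 Control library except M01. In Rehydrated against Dehydrated DESeq2 gave -2.68 for Alkal2 and -1.58 for Has3, and without Control M01 -2.69 for Alkal2, -1.59 for Has3 and -0.76 for Thbs1 (adjusted p = 0.00248, 0.00540 and 0.00799), all past the threshold. With each library left out, edgeR gave -2.98 to -2.45 for Alkal2, -1.69 to -1.43 for Has3 and -0.14 to 0.49 for Ltk. Estimates near 0 changed sign: in Rehydrated against Control, Has3 was -0.025 in DESeq2 without Control M01, and with each library left out Alkal2 was -0.46 to 0.27, Has3 -0.042 to 0.26 and Thbs2 -0.027 to 0.16. The sex difference in response ran from -0.11 to 0.23 for Alk, -1.02 to 0.23 for Serpinb2, -0.12 to 0.68 for Has3 and -0.032 to 0.26 for Thbs2 with each library left out. The causes were not tested.

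Deviations of libraries that share a name between groups correlated at -0.08 to 0.06, -0.10 to 0.08 and -0.08 to 0.11 in the 3 treatment comparisons. In Rehydrated against Dehydrated 2 of 7 pairs exceeded 0.1 and 2 of 7 were best matched by name, against 0 in each other comparison. Such low correlations cannot exclude that shared names pair animals. With the names as a replicate block, 15 genes passed in Dehydrated against Control, where the edgeR adjusted p was 0.109 for Alkal2 and 0.280 for Serpinb2. In that fit 7 passed in Rehydrated against Dehydrated, and in Rehydrated against Control the estimates were 0.45 for Alkal2 and -0.052 for Thbs2.

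Of the pathway genes (counted per setting after the data were seen) 0 passed in Dehydrated against Control, 2 in DESeq2 with and without Control M01, 1 without the sex covariate and 0 to 1 with each library left out (Tnfaip6 without Dehydrated F04 or Control M01, Bcan without Rehydrated M04 or Control M06). In Rehydrated against Control DESeq2 passed 1 with and without Control M01. With sex means also subtracted, Has3 and Thbs1 correlated at r = 0.55 (adjusted permutation p = 0.0758), and with each library left out at 0.45 to 0.68, Alkal2 and Has3 at 0.28 to 0.50, and Alkal2 and Thbs1 at 0.26 to 0.48. Low counts limit Alkal2, Serpinb2, Ltk and Has2 most.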
